A study of Mus musculus with 2 samples.

Results

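The genes described here encode the Meis, Pbx and Pknox cofactors of Hox proteins, and were read in mouse embryoid bodies in which hairpins against the long noncoding RNA HoxBlinc were left off or switched on. Members were taken by gene name, as Meis1, Meis2, Meis3, Pbx2, Pbx3, Pbx4, Pknox1 and Pknox2. The choice was made with earlier results of these data known. All 8 were found in both gene tables, among 20207 genes. Embryoid bodies are floating aggregates in which embryonic stem cells differentiate, and total RNA was taken from them on day 6. The cells of both libraries held hairpins against HoxBlinc, a transcript of the HoxB cluster, that doxycycline switches on. The control library had no doxycycline, and the other had doxycycline at 2 ug/ml from day 2. Each library pooled RNA from 2 separate hairpins, and the labels name R1/E and CGR8 MHC-GFP stem cells without saying which of these gave a library. There was thus 1 library per condition and no replicate. Each comparison below is of these 2 libraries, no p-value was computed, and intervals cover counting error only.

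Hox proteins by themselves bind short and common DNA sequences. Pbx proteins bind DNA beside them and sharpen which sites are used, while Meis and Pknox proteins bind Pbx and keep it in the nucleus. All of these cofactors belong to the TALE class of homeodomain proteins, named for extra residues in a loop of the DNA-binding domain. In the embryo they act in hindbrain, limb, heart and blood formation, and Meis genes respond to retinoic acid.

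The RefSeq promoter table (build GRCm38.p6) held 5 of the 8 genes. The windows of the Meis genes are shown because these were the members that were lower together, and each is the 250 bases before the annotated start, 5′ to 3′ on the gene's strand. Capitals mark a CCAAT box (CCAAT or its complement ATTGG) or a TATA box (TATAAA on either strand).
Meis1, chr11:19018970-19019219, minus strand: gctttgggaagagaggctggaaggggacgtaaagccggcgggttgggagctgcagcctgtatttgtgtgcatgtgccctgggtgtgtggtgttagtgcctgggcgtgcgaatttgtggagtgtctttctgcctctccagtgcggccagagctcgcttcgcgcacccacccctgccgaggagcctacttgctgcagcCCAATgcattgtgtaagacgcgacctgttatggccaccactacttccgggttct
Meis2, chr2:116064620-116064869, minus strand: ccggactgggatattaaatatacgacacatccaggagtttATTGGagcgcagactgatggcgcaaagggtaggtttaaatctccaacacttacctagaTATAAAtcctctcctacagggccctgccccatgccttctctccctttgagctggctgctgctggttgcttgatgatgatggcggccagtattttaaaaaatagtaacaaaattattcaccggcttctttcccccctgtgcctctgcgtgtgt
Meis3, chr7:16175145-16175394, plus strand: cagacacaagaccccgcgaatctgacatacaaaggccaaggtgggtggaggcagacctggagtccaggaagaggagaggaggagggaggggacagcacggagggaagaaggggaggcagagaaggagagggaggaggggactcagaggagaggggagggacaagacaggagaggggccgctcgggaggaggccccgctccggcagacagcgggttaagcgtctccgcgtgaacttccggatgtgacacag
Meis1 held a CCAAT box that begins 54 bases before the start. Meis2 held a CCAAT box at 210 and a TATA box at 152 bases, and Meis3 held none of these letters. Of the other members in the table, Pbx4 held CCAAT boxes at 197 and 30 bases and Pbx2 held none, so CCAAT was in 3 of the 5 windows. CCAAT was present in 33.8% of all 32851 promoter windows of this length and TATAAA in 12.4%. The site of Meis and Pknox proteins, TGACAG, and the joint Hox and Pbx site, TGATTNAT, were searched on both strands and overlap no other motif searched. They were found in 0 of the 5 member promoters, against 15.9% and 2.82% of all windows. G and C made up 59.6% of the Meis1, 47.6% of the Meis2 and 63.6% of the Meis3 window, with a median of 52.4% over all windows.

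The summed gene counts were 37046449 for the control library and 24924921 for that with doxycycline. Genes were called measured at an RPKM (reads scaled by gene model length and by library size) of at least 1 in the higher library, which took 11063 genes and all 8 members. Of these, Meis1 reached that level only without doxycycline. The transcript targeted by the hairpins was not analysed here, so these values do not check the labels. The median log2 ratio of measured genes, with over without doxycycline, was -0.18 on log2(RPKM + 0.5) and -0.03 in CPM (counts scaled by the summed gene counts), so folds of single genes are given in CPM. Genes with exactly 2 counts outnumbered those with 1 in both libraries, as happens where both mates of a read pair are counted. Intervals were therefore also computed with all counts halved.

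The 3 Meis genes were lower with doxycycline, Meis1 most. Meis1, a partner of Hoxa9 in blood stem cells and leukaemia, lies on chromosome 11 at 18780431 to 18918683 (mm9, as in the authors' tables). It had 257 counts (1.37 RPKM) without and 62 counts (0.439 RPKM) with doxycycline. The counting intervals of the level, 1.21 to 1.55 and 0.336 to 0.563 RPKM, lay apart. In CPM this was 6.94 against 2.49, or 2.79-fold lower (exact 95% interval 2.11 to 3.74, and 1.86 to 4.26 with all counts halved). Meis1 was the only one of the 8 members under 1 RPKM in either library. Reads at olfactory receptor genes, which such cells are not known to use, differed too, with 556 of 1111 such genes read without and 60 with doxycycline. Their trimmed mean of 0.0165 RPKM without doxycycline corresponds to 3.1 of the 257 Meis1 counts.

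Meis2, a regulator of cranial neural crest and heart outflow tract development, lies on chromosome 2 (115687000 to 115890794). It had 776 counts (2.69 RPKM) without and 300 (1.38 RPKM) with doxycycline, which in CPM was 1.74-fold lower (1.52 to 2.00). Meis3, which acts in hindbrain patterning in frog and fish, lies on chromosome 7 (16760729 to 16771852). It had 398 counts (3.65 RPKM) and 148 (1.80 RPKM), 1.81-fold lower (1.49 to 2.20). With all counts halved the intervals were 1.44 to 2.12 and 1.38 to 2.40. The levels of both genes lay apart between the libraries, and Meis2 and Meis3 moved by nearly the same factor. Bulk RNA cannot tell fewer cells that use these genes from less RNA of them per cell.

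The Pbx genes did not move together. Pbx2, a broadly used family member, lies on chromosome 17 (34729416 to 34734286) and was the most abundant of the 8 genes by far. Its 6363 counts (37.1 RPKM) in the control library stood against 3461 (26.7 RPKM), and it was 1.24-fold lower in CPM (1.19 to 1.29). Pbx3, which is needed in mice for the brainstem control of breathing, lies on chromosome 2 (34027429 to 34227556). Among members with one gene model it alone had a counting interval above 1, with 635 counts (4.33 RPKM) without and 565 (5.11 RPKM) with it. In CPM it was 1.32-fold higher (1.18 to 1.48, and 1.12 to 1.55 with all counts halved). The counting intervals of its RPKM, 4.00 to 4.68 and 4.70 to 5.55, lay just apart. Scaled by the authors' RMS-normalized RPKM, where the median of measured genes was -0.43, the log2 ratio of Pbx3 was 0.0035. Pbx4, known for its use in testis, lies on chromosome 8 (72356603 to 72396191). It had 109 counts (1.32 RPKM) and 78 (1.25 RPKM), and the interval of its CPM fold higher, 0.785 to 1.44, included 1.

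The Pknox genes, also called Prep genes, were within 2-fold between the libraries. Pknox1, which is essential in early mouse embryos, lies on chromosome 17 (31701718 to 31744637). It had 802 counts (3.11 RPKM) without and 489 (2.51 RPKM) with doxycycline, 1.10-fold lower in CPM with an interval of 0.985 to 1.24 that included 1. Pknox2 lies on chromosome 9 (from 36698567) and had 1192 counts (5.67 RPKM) and 959 counts (5.94 RPKM). Its gene model ended at 36954899 in the table without and 36954851 in that with doxycycline, so no count ratio was taken. The counting intervals of its RPKM, 5.35 to 6.00 and 5.57 to 6.33, overlapped. That overlap is on the RPKM scale, where the median log2 ratio of measured genes was -0.18 and Pknox2 stood at 0.06. Of the measured genes 1845 were as high or higher, so the overlap does not show that Pknox2 moved with the median.

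**Figure D1:**
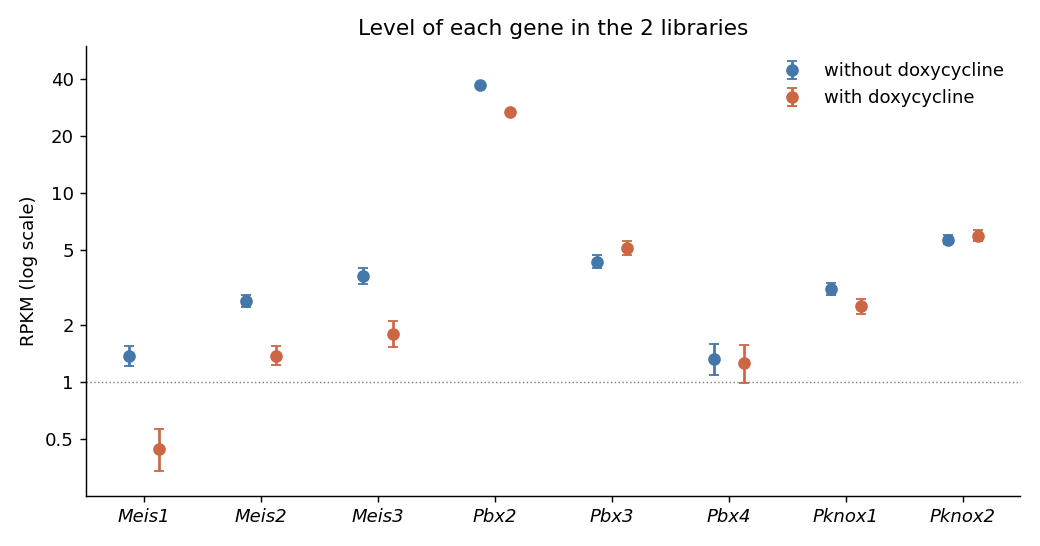
RPKM of the 8 genes (log axis) in the library without and the library with doxycycline, 1 point per library, with exact Poisson 95% intervals for counting error; the dotted line is 1 RPKM. Pbx2 stands at 37.1 and 26.7 RPKM, and the 3 Meis genes are lower with doxycycline, Meis1 from 1.37 to 0.439 RPKM.

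**Figure D2:**
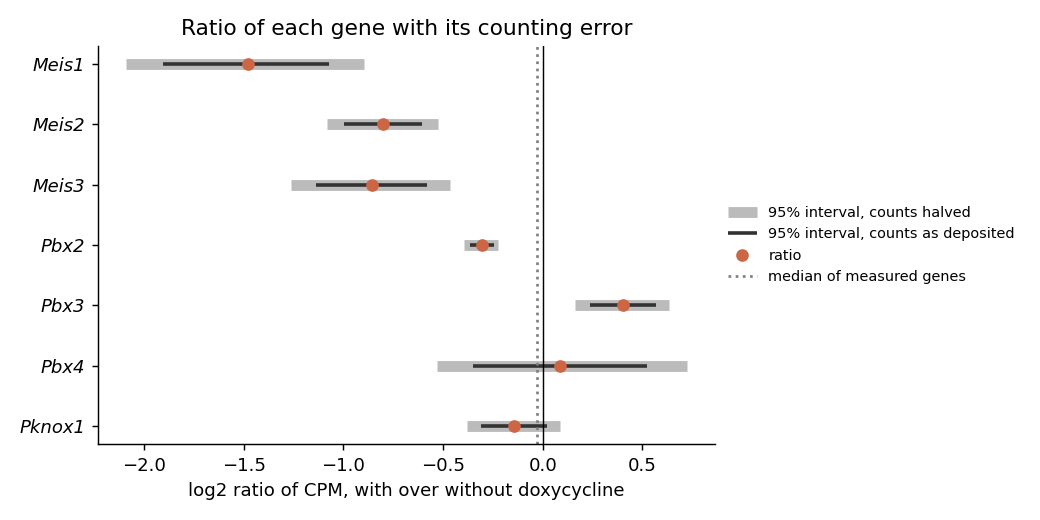
Log2 ratio of CPM with over without doxycycline for the 7 genes with the same gene model in both tables (points), with exact 95% counting intervals as deposited (dark) and with all counts halved (grey); the dotted line is the median of measured genes, -0.03. Intervals of Meis1, Meis2, Meis3 and Pbx2 lie below 0, that of Pbx3 above 0, and those of Pbx4 and Pknox1 include 0.

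Of the 7 members with one gene model, 4 had a counting interval below a ratio of 1 (Meis1, Meis2, Meis3 and Pbx2) and 1 above it (Pbx3). At this depth such intervals are common: 36.8% of the 10964 measured genes with one model lay below 1 and 28.6% above it. With all counts halved the members were the same 4 and 1, and the shares of all genes were 30.2% and 22.8%. The size of the difference sets the Meis genes further out. On log2(RPKM + 0.5), which understates differences of low genes, Meis1 was at -0.996, Meis3 at -0.85 and Meis2 at -0.76. Of the 11063 measured genes 297, 409 and 519 were as low or lower than these. The measured genes span all levels, and no rank among genes of like level was taken. At least 2-fold lower were 2.64% of all measured genes and 5.20% of those with an RPKM of 1 to 5. Pbx2 was at -0.46, Pknox1 at -0.26, Pbx4 at -0.06, Pknox2 at 0.06 and Pbx3 at 0.21, a ratio that 772 measured genes reached or passed. The median of the 8 members was -0.36 and 5 of the 8 lay below the median of all measured genes.

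No member passed 2-fold on this scale in either direction, 0 of 8 lower and 0 of 8 higher. The same threshold took 292 lower genes (2.64% of all measured) and 29 higher genes (0.262%), and 193 and 50 when centred on the median ratio. Among the 3420 genes with an RPKM of 1 to 5, where 5 of the members lie, the shares were 5.20% and 0.322%. Meis1 lay just short of the threshold there and was 3.13-fold lower as a plain ratio of RPKM. In CPM, 1 of the 7 members with one gene model (Meis1) was at least 2-fold lower and 0 were higher. Of all measured genes with one model 2.99% were lower and 0.648% higher, and 7.04% of those with an RPKM of 1 to 5 were lower.

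**Figure D3:**
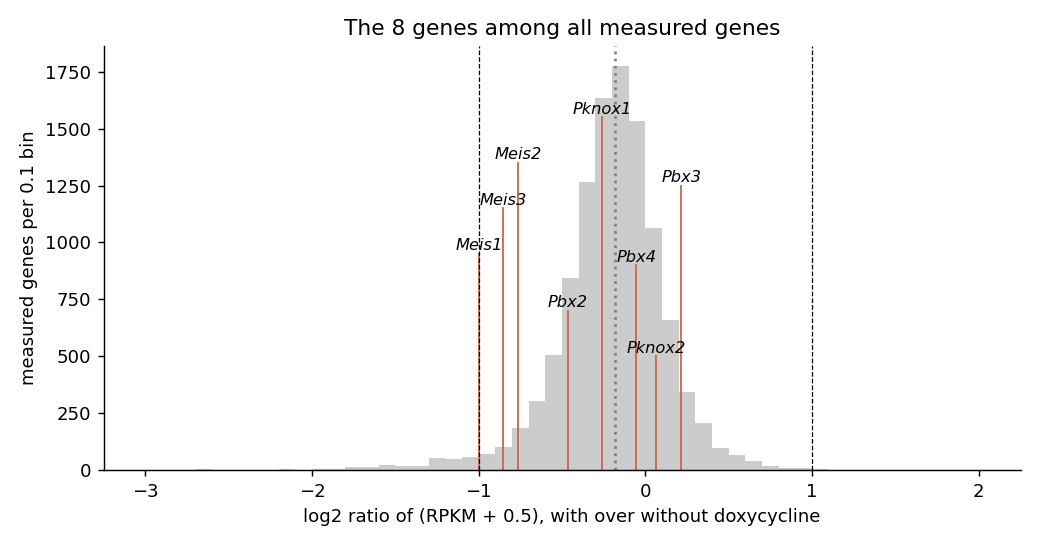
Histogram of the log2 ratio of (RPKM + 0.5), with over without doxycycline, over 11063 measured genes in bins of 0.1 (19 genes lie outside the axis); labelled lines are the 8 genes, at heights chosen for legibility. Dashed lines mark 2-fold and the dotted line the median, -0.18; the Meis genes lie in the lower tail, with Meis1 at -0.996.

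The ratio of one member to another within a library does not depend on how libraries are scaled. Of the 21 pairs among the 7 genes with one model, 16 had a change in this ratio with an exact interval that excluded 1. With all counts halved 15 did. The share among pairs of all genes was not computed. Single genes often had a CPM interval off 1 at this depth (36.8% below and 28.6% above). The 21 pairs reuse the same 7 genes, so they are not separate results. There were 2.36 Meis1 counts per Pbx4 count without doxycycline and 0.795 with it, a 2.96-fold change (1.94 to 4.52). Against Pbx3 the Meis1 count ratio changed 3.69-fold (2.71 to 5.06), that of Meis3 2.39-fold (1.91 to 3.004) and that of Meis2 2.30-fold (1.93 to 2.75). Every one of the 12 pairs of a Meis gene with a Pbx gene or Pknox1 changed with the Meis gene the lower. Their intervals excluded 1 with counts as deposited and halved. These 12 pairs rest on the same low ratios of Meis1, Meis2 and Meis3. Among the Meis genes, Meis1 changed 1.60-fold more than Meis2 (1.17 to 2.22, and 1.02 to 2.56 with all counts halved) and 1.54-fold more than Meis3 (1.09 to 2.19). The latter included 1 with all counts halved (0.935 to 2.56). Meis2 and Meis3 did not differ in their change beyond counting error (0.962, 0.757 to 1.22). Pbx2 and Pbx3 did, by 1.64-fold (1.45 to 1.85).

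**Figure D4:**
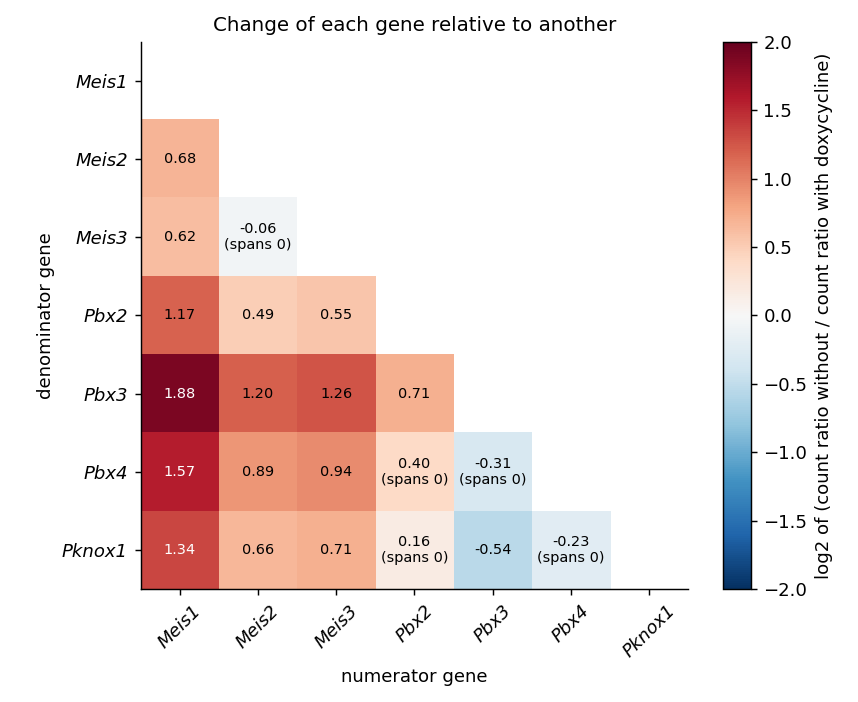
Log2 of the count ratio without over the count ratio with doxycycline for each pair of the 7 genes with one gene model, numerator gene across and denominator gene down. Red means that the numerator gene was relatively lower with doxycycline; the columns of the Meis genes are red against each Pbx gene and Pknox1, and 5 pairs have an interval that spans 0.

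Levels could be ordered by RPKM, which is per length. Without doxycycline the order was Pbx2, Pknox2, Pbx3, Meis3, Pknox1, Meis2, Meis1 and Pbx4. The neighbours Pbx3 and Meis3, Meis3 and Pknox1, and Meis1 and Pbx4 had overlapping counting intervals there. With doxycycline it was Pbx2, Pknox2, Pbx3, Pknox1, Meis3, Meis2, Pbx4 and Meis1, and Meis3 and Meis2, and Meis2 and Pbx4, overlapped. Meis1 thus went from overlapping Pbx4 to lying apart below it, and Meis3 from overlapping Pknox1 to lying apart below it. The Meis genes together were at 7.71 RPKM without and 3.61 with doxycycline, the Pbx genes described here at 42.7 and 33.1, and the Pknox genes at 8.77 and 8.46.

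Other TALE homeobox genes were examined as a list of 9, of which 7 were measured. At least 2-fold lower were 4 (Irx1, Irx3, Irx4 and Irx5), and 0 were higher, against 2.64% and 0.262% of all measured genes. Among genes with an RPKM of 1 to 5 the share lower was 5.20%. Irx1, Irx2, Irx4 and Irx5 reached 1 RPKM only without doxycycline, so the count describes the listed genes alone. Irx2 was short of 2-fold, at 1.80-fold lower in CPM. The median log2 ratio was -1.12 over the measured genes and -0.72 over all 9. The genes counted as lower were all Iroquois genes, which pattern neural tissue and heart. Irx5 went from 3.77 to 0.864 RPKM between the libraries without and with doxycycline (3.89-fold lower in CPM, 3.13 to 4.88) and Irx1 from 1.50 to 0.420 (3.18-fold, 2.25 to 4.59). Irx4, a gene of heart ventricles, was 2.99-fold lower (2.30 to 3.93) and Irx3 2.10-fold (1.89 to 2.34). On the RPKM scale the 4 became 2 when centred on the median ratio or with a pseudocount of 1. Tgif1 and Tgif2, repressors of this class, were within 2-fold.

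Genes of proteins that bind these cofactors or the complexes they form lay within 2-fold, as did most measured genes. Of 11 genes, all of them measured, 0 were past 2-fold, against 2.64% lower and 0.262% higher of all measured genes. The median log2 ratio of the 11 was -0.04. Hdac3, a histone deacetylase, stood at -0.22, Ncor1, a corepressor, at 0.20, Myh10, a nonmuscle myosin, at -0.20, and Mybbp1a, which binds Pknox1, at -0.20. The median of this list turned sign with the scaling, at 0.12 in CPM and -0.28 in RMS-normalized RPKM. The median of all measured genes moved as well, at -0.03 and -0.43, and the list lay above it on both scales.

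Genes reported elsewhere as targets of Hox complexes with these cofactors went both ways. Of 15 genes 6 were measured, with 2 at least 2-fold lower and 1 higher, against 2.64% and 0.262% of all measured genes. Each gene so counted reached 1 RPKM only in the library where it was the higher. The count is thus a description of them alone, and the median log2 ratio over all 15 was -0.13. Pax6, whose lens enhancer is bound by Meis proteins, had 216 counts in the control library and 23 in the other, which was 6.32-fold lower (4.10 to 10.2). Rarb, a retinoic acid receptor, had 426 and 91 counts, 3.15-fold lower (2.51 to 4.00). Aldh1a2, a retinaldehyde dehydrogenase and source of retinoic acid, had 83 and 178 counts and was 3.19-fold higher (2.44 to 4.19). Epha2, an ephrin receptor, was 1.29-fold lower (1.18 to 1.40). With a pseudocount of 1 only 1 gene was lower and 0 higher. The Hox genes of this list were all under 1 RPKM in both libraries. Hoxb2, Hoxb3 and Hoxb4 had 59, 77 and 63 counts without and 2, 4 and 4 with doxycycline, while Hoxb1 had 5 and 0. Hoxa3 had 10 and 2 counts and Hoxa2 11 and 13. In CPM Hoxa3 was 3.36-fold lower (0.717 to 31.6) and Hoxa2 1.76-fold higher (0.726 to 4.33). These intervals and that of Hoxb1 (a ratio of 0 to 1.62) included 1. Of the Hox regulators Cdx1, Cdx2, Cdx4 and Evx1 only Cdx2 was measured, with 266 and 10 counts, and Evx1 had 49 and 0.

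Markers of several tissues that use Meis genes moved with the same comparison. Endothelial and blood markers were at least 2-fold lower in 7 of 8 measured genes and summed to 50.8 RPKM without and 2.90 with doxycycline, with Hbb-bh1 and Hba-x at 0 counts in the latter. Cardiac markers were lower in 6 of 8, at 59.5 and 18.4 RPKM, with Nkx2-5 and Tbx5 at 0 with doxycycline. Tbx5 is not among the 8 and had only 20 counts (0.0828 RPKM) in the control library. Endoderm markers were lower in 5 of 8 (27.5 and 7.59 RPKM). Fibroblast markers, of the cell type used as feeders before differentiation, were lower in 4 of 6 (93.3 and 50.25 RPKM), while Fap, with 1 and 0 counts, and Dcn, with 1 and 2, were nearly without reads in both libraries. Neural markers went both ways and summed to 22.7 and 24.2 RPKM. Pax6 and the tubulin Tubb3 were at least 2-fold lower, 2 of 5, while Stmn2 was 1.79-fold (1.61 to 2.00) and Sox1 1.35-fold higher in CPM. Neurog2 had 15 and 0 counts, and Dcx 10 and 0, with a control level of 0.0182 RPKM near that of the olfactory receptor genes. Pluripotency markers were lower in 1 of 8 (366 and 298 RPKM). In none of these lists was a measured marker at least 2-fold higher. Across the 11063 measured genes this threshold took 2.64% on the lower side and 0.262% on the higher side. For an RPKM of 1 to 5 the lower share was 5.20%. Many markers reached 1 RPKM only without doxycycline, namely 7 of the 8 measured endothelial and blood, 6 of 8 cardiac, 6 of 8 endoderm, 2 of 5 neural and 1 of 6 fibroblast genes, and their counts describe these genes alone. With no filter the list medians of the log2 ratio were -1.21, -1.98, -1.56, -0.05 and -0.73 in that order, and -0.10 over all genes. The part of these cell types in the lower Meis levels was not tested.

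**Figure D5:**
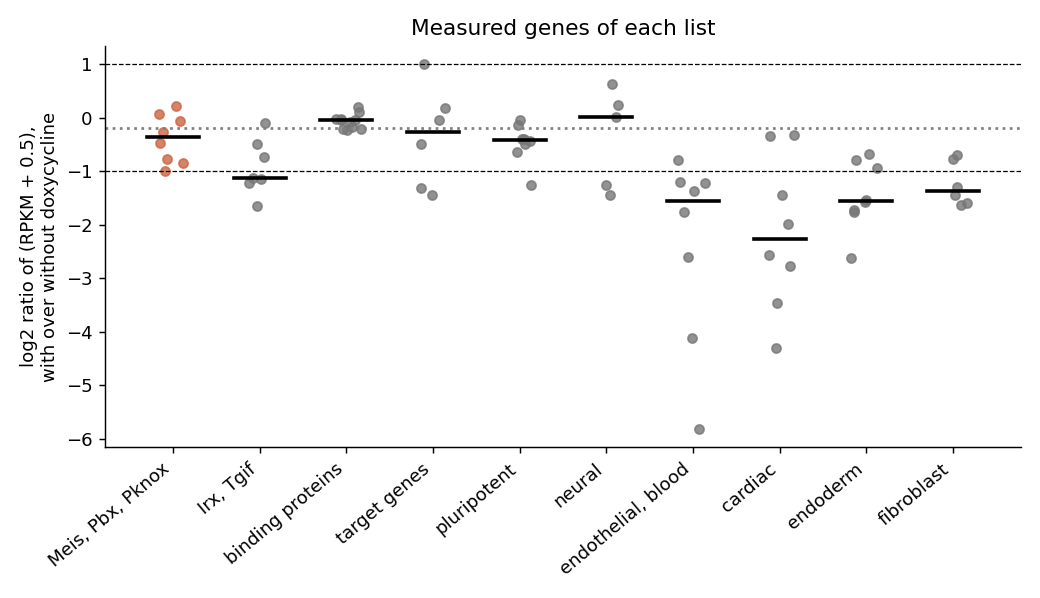
Log2 ratio of (RPKM + 0.5), with over without doxycycline, of each measured gene (points) by list, with the list's median (bar); the dotted line is the median of all measured genes, -0.18, and dashed lines mark 2-fold. The 8 cofactor genes, at a median of -0.36, lie within 2-fold, while the Iroquois and Tgif genes are at a median of -1.12 and the cardiac markers lower still.

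The tables listed no other gene that overlaps a member. In the GENCODE M21 annotation of GRCm38, 4 of the 8 (Meis1, Pbx3, Pknox1 and Pknox2) have a gene on the opposite strand, and 4 overlap a gene on their own strand. These are Meis1 with 3 such genes, and Pknox1, Pknox2 and Pbx2 with 1 each, Gpsm3 for Pbx2. The sources used here do not say whether counting used strand, and such reads cannot be told apart. Meis2, Meis3 and Pbx4 have no annotated overlap.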

How the data were processed

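Paired-end RNA-seq was made from total RNA of day 6 embryoid bodies, per the labels' protocols. The submitters' processing notes name Bowtie2 and mm9. The deposited library tables give, per the file headers, an RPKM, a read count and an RMS-normalized RPKM for each gene. The deposited values are estimated counts, not whole for 1062 genes in the control library and 825 in the other, and whole for all 8 members. The RMS-normalized RPKM is a ratio of RPKM to a library-wide value set by the authors. The authors' standard score (Z-score) was not used. The counting program is not given in the sources used here.

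Library tables were joined by gene name, since 173 rows differed in order. Ratios of RPKM used a pseudocount of 0.5, and a gene was measured where either library reached an RPKM of 1. CPM ratios had exact conditional binomial (Clopper-Pearson) and levels exact Poisson 95% intervals, from counts rounded to whole numbers (scipy 1.17.1, pandas 2.3.3). The 237 genes whose models differed were left out of the pairs and of the CPM counts over 10964 genes. The fold and interval computation was checked on simulated libraries. Members and lists were chosen with earlier results of these data known. Named are all 8 members, up to 4 members of each other list with the largest ratio, and the Hox genes of the target list. Evx1, Cdx1, Cdx4, Tgif1, Tgif2 and the markers at 0 counts were named after their values were seen. Irx2 and Dcn also fall outside that rule. With 2 libraries a pattern is a single ratio, so no gene of like pattern is named. Alternatives were the pseudocount, the filter, the scaling and the authors' merged table. The range of RPKM from 1 to 5 was added after seeing the data.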

Additional observations from a re-analysis of the deposited data

How the results depend on the processing

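The lower Meis1, Meis2 and Meis3 and the higher Pbx3 kept their direction in CPM, in RPKM and relative to the median ratio. They also kept the side of their counting intervals with all counts halved. In RMS-normalized RPKM the log2 ratio of Pbx3 was 0.0035, nearly no difference on that scale. The Pbx2 log2 ratio of -0.31 in CPM became -0.47 as deposited RPKM. The sign for Pbx4 turned from 0.09 in CPM to -0.08 in RPKM, within its counting interval, and Pknox2 stood at 0.07 in RPKM and -0.17 in RMS-normalized RPKM. Members at least 2-fold lower went from 0 to 1 (Meis1) with a pseudocount of 0.1 and in CPM, and to 3 (the Meis genes) in RMS-normalized RPKM. In RMS-normalized RPKM the median of all measured genes was itself at -0.43. Over all genes, 292 lower became 178 with a pseudocount of 1, 193 when centred, 1426 in CPM over all 14597 genes with 10 or more counts (another filter as well as another scale) and 760 in RMS-normalized RPKM. The 29 higher became 46 with a pseudocount of 0.1, 50 when centred, 230 in CPM over those 14597 genes and 63 in the merged table. In CPM over the 10964 measured genes with one model, 328 were lower and 71 higher. Among genes with an RPKM of 1 to 5 there were 178 lower and 11 higher. No paired analysis was possible because each group held 1 library, and none could be left out. The causes of these shifts were not tested. At the depth of Pbx4, with 109 and 78 counts, a difference of up to 1.44-fold higher lies within counting error.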
